A study of Mus musculus with 6 samples.

Results

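The genes described here encode nucleolar ribosome biogenesis factors and subunits of RNA polymerase I (Pol I). They were chosen by name: array genes of the Nop, Nol, Utp and Rrp families and the Polr1 series, together with Fbl, Ncl, Npm1, Bop1, Pes1, Wdr12, Dkc1, Gar1 and Nhp2. The rule found 34 genes among 28090 gene names on the array, and 34 of the 34 passed the filter on dim probes, which left 22803 genes to test. The rule reads the names printed on the array, so genes listed there under older symbols fell outside it and are described separately.

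Ribosomes are built in the nucleolus. Pol I transcribes the long precursor of ribosomal RNA, small nucleolar RNPs of the box C/D and box H/ACA classes modify it, the small subunit processome cuts it and folds the 40S precursor, and a further set of factors matures the 60S subunit. A T cell that leaves rest and starts to grow raises this machinery, in part through the transcription factor MYC.

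Two-colour arrays compared 2 RNAs on each of 6 arrays. One RNA came from CD4 T cells of the spleen (C57BL/6J mice) that received VIP (vasoactive intestinal peptide, a neuropeptide with receptors that raise cAMP) on top of activation by PMA, a phorbol ester, with the calcium ionophore ionomycin. The other came from cells activated in the same way without VIP, so PMA and ionomycin were common to both groups. Per the labels, cells were taken from males and females of 6 to 32 weeks, with 5 to 10 spleens pooled per sample, and were selected with CD4 magnetic beads. VIP was in Cy5 on replicates 1, 3 and 5 and in Cy3 on replicates 2, 4 and 6. How much VIP was used, and for how long, is not stated in those labels. They describe the arrays as 6 biological replicates.

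Spots well above background made up between 56.9% and 99.9% of an array and channel, and the number of arrays limits the precision. Of the CD4 T cell markers, 7 of 7 were above background on all arrays, against 4 of 6 B cell, 2 of 6 monocyte and macrophage, 3 of 4 erythroid, 1 of 2 CD8 and 0 of 3 NK cell markers. Of these markers 2 were called, the monocyte marker Cd14 (log2 ratio 0.57, limma adjusted p = 0.0033) and the T cell receptor co-stimulator Cd28 (0.28, limma adjusted p = 0.013), both higher with VIP. The part of a change in cell make-up in the results was not tested. Replicate 5 stood apart. The Y-linked transcript Eif2s3y had a log2 ratio of VIP over untreated of 4.18 there and between -0.15 and 0.28 on the other arrays, and the brightest Xist probe stood at -3.29 there and between -0.34 and 0.46 elsewhere. The VIP RNA of replicate 5 thus gave more Eif2s3y signal and less signal on that Xist probe than the untreated RNA. A difference by VIP and one by the sex of the pooled mice cannot be told apart on that array. Quality flags also removed 13.5% of its spots, against 0.574% to 4.44% elsewhere, and 9 of the 34 genes had no value on it. For Nol1, Nol5, Nol5a, Rrp15, Ncl, Npm1 and Utp18 the fit is also given without it.

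Promoter sequences are shown for a few genes. For Utp14b, the gene that passed the test, and for Acsl3, the gene it lies in, the window from 250 bases before to 50 bases after the start site is given from RefSeq (GRCm38.p6). Utp18, which came nearest to passing among the lower genes, and Nop2 (Nol1 on the array) follow. Nop2 did not pass (log2 ratio -0.099, limma adjusted p = 0.529). Capitals mark the E-box CACGTG, the site that MYC with its partner MAX is known to bind. The windows are chr1:78658190-78658489 (plus strand) for Utp14b, chr1:78657575-78657874 (plus) for Acsl3, chr11:93885717-93886016 (minus) for Utp18 and chr6:125131633-125131932 (plus) for Nop2.
Utp14b: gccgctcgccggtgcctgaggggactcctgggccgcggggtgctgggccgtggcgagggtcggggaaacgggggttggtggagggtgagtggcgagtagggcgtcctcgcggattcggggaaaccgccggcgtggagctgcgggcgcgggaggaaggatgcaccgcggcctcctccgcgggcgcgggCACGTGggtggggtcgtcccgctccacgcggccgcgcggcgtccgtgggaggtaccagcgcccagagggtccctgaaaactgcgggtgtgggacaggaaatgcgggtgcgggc
Acsl3: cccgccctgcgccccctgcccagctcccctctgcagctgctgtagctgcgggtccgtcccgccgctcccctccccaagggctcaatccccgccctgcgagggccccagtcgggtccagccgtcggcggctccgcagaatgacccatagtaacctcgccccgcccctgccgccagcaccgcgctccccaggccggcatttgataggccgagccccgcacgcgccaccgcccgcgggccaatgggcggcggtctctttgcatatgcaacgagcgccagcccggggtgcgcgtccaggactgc
Utp18: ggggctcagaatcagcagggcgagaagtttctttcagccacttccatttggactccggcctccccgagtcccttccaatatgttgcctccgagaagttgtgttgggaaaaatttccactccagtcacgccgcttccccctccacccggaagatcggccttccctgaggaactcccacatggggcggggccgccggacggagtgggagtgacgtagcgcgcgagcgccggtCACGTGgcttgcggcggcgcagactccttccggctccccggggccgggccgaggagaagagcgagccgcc
Nop2: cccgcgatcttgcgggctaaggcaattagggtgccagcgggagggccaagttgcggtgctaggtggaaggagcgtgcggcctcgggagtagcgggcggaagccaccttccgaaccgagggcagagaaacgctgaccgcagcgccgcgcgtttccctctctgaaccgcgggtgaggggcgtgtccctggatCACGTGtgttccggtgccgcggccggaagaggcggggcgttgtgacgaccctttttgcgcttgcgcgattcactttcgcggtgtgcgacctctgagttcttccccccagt

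An E-box stood in the window of 6 of the 25 genes with an entry in the RefSeq promoter table (24.0%), against 2187 of 27025 genes in that table (8.1%). The 6 were Nol11, Nop2, Pes1, Utp14b, Utp18 and Utp20. Their log2 ratios with VIP ran from -0.21 for Utp18 to 0.29 for Utp14b, and 1 of the 6, Utp14b, passed the test. The cAMP response element TGACGTCA was found in 0 of the 25 windows and in 549 of the 27025 (2.0%). Both motifs read the same on both strands, and neither contains the other. A match is a description of these letters in this window.

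Probe sequences are shown for Polr1e, the Pol I subunit, and for the 2 brightest probes of nucleolin (Ncl), where capitals mark the 40 bases both probes share, so that these 2 are not separate readings of the transcript. On mm9 the file headers place the Polr1e probe at chr4:45044243-45044302 (plus strand), the brightest Ncl probe within chr1:88247602-88247992 (minus) and the other at chr1:88247953-88248012 (minus).
Polr1e probe: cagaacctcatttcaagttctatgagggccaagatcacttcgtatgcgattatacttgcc
Ncl brightest probe: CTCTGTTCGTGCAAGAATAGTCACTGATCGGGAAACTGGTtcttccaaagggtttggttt
Ncl second probe: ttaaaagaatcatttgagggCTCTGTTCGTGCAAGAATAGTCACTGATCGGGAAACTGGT

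Of the 34 genes, 1 changed with VIP. Utp14b rose 1.22-fold, and none fell (limma, Benjamini-Hochberg adjusted p under 0.05 over 22803 genes). This share, 2.94%, stood near the background of all genes, of which 2.09% were called (1.58% higher and 0.509% lower). At an unadjusted p under 0.05 there were 5 of 34 genes, 2 higher and 3 lower, against 13.0% of all genes. The median log2 ratio was -0.032, with 13 genes above 0 and 21 below, but it turned to 0.042, with 23 above and 11 below, when arrays were centred on their median in place of loess. The median of all genes was -0.00041 and -0.00076 in these settings. The values ran from -0.29 (Utp11l) to 0.29 (Utp14b). Without replicate 5, 33 genes could be tested, 1 was called higher (Utp14b) and 1 lower (Utp18), and the median was -0.025. In such bulk RNA a change in the cells present and a change of RNA per cell cannot be told apart.

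The 95% intervals give the precision of the fitted ratios. For 28 of the 34 genes the whole interval lay within a 1.2-fold change in either direction, and for 30 it lay within 1.3-fold. These counts rest on the brightest probe of each gene and leave out differences between probes. Wdr12 lay within 1.2-fold by its brightest probe, while a dimmer one gave -0.18 ± 0.048. The intervals of Ncl, Npm1, Utp11l and Utp14b reached beyond 1.3-fold, and that of Ncl beyond 1.5-fold. The intervals cover the spread between arrays only. They do not bound a change for Nol3 and Nol4, which were dim (the SE of Nol3 was 0.049 here and 0.19 with Agilent's log ratios), nor for Fbl and Nol5a, whose red spots were saturated on replicate 5. The sign was the same on every measured array for 6 of 34 genes (Dkc1, Polr1e, Utp11l, Utp14b, Utp18 and Utp6), against 6.62% of all genes. Array by array, the median over the genes lay between -0.075 (replicate 1) and 0.011 (replicate 4).

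**Figure D1:**
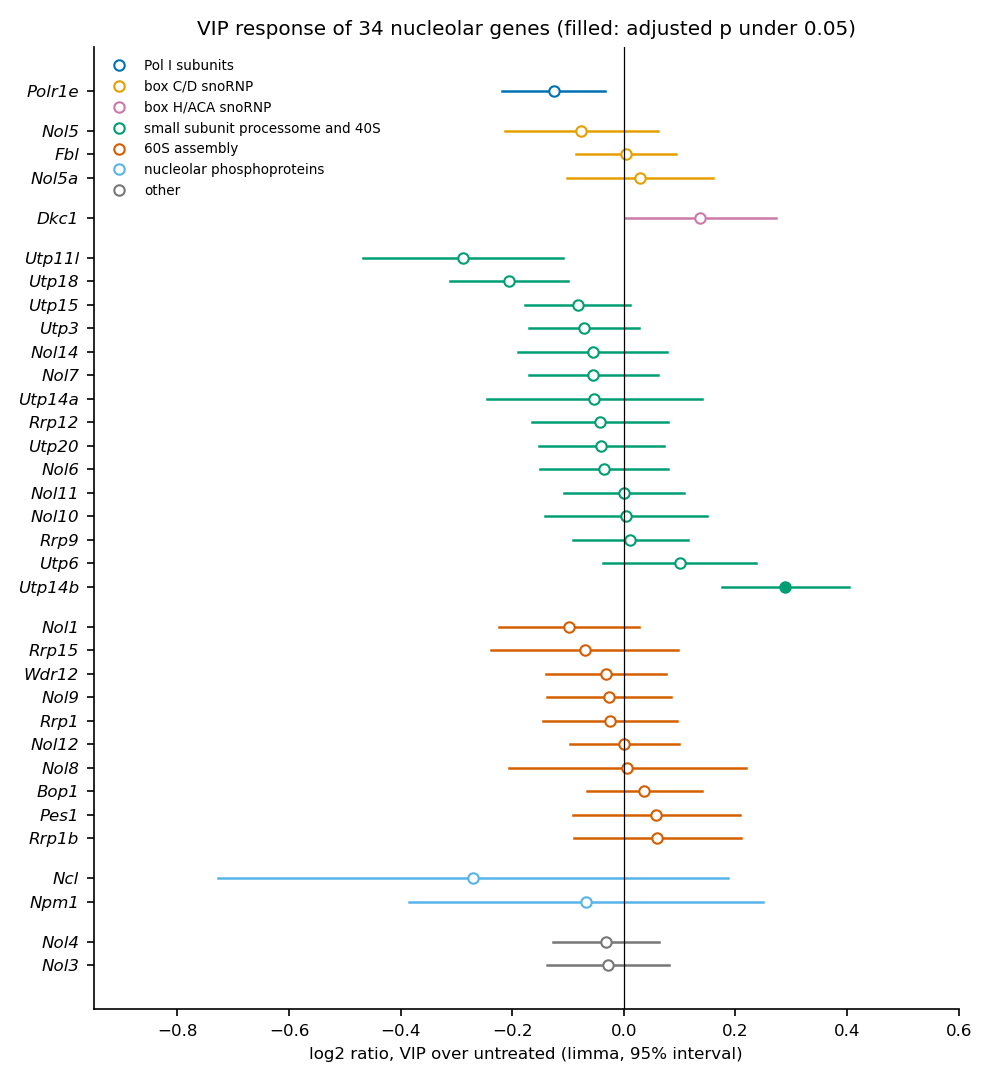
Log2 ratio of VIP over untreated (x axis) for the 34 genes (y axis), grouped and coloured by role, with 95% intervals from limma as bars; a filled point passed adjusted p 0.05. Utp14b at 0.29 is the filled point, and Ncl has the widest interval.

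Pol I was represented by Polr1e, a subunit that helps the enzyme bind its initiation factors. Its log2 ratios were -0.00063, -0.20, -0.063, -0.18, -0.18 and -0.12 on replicates 1 to 6. All lay below 0, the first of them barely. The fitted log2 ratio was -0.13 ± 0.042 (SE, n = 6 arrays, limma adjusted p = 0.212). Of the other subunits, listed on the array under Rpo1 names, Polr1a, the largest subunit, stood at -0.14 ± 0.045 (n = 5, limma adjusted p = 0.218). Polr1b, Polr1c and Polr1d stood at 0.0080, 0.045 and 0.048. None of these subunits passed the test.

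The box C/D snoRNP proteins guide methylation of ribosomal RNA. Their 3 genes were the methyltransferase Fbl and the core proteins Nop58 (Nol5) and Nop56 (Nol5a), and 0 of 3 passed. Nol5 had log2 ratios of -0.056, -0.17, 0.070, 0.16, -0.31 and -0.15, on both sides of 0, with a fit of -0.076 ± 0.062 (limma adjusted p = 0.686), or -0.023 ± 0.057 without replicate 5. Fbl was at 0.81, 0.96 and 0.95 on the arrays with VIP in Cy5 and at -0.92, -0.87 and -0.91 with VIP in Cy3. These values followed the dye and not the treatment, and the fit, which holds a dye term, gave 0.0040 ± 0.040 for VIP beside a dye effect of 0.90. Nol5a behaved likewise, with 0.84, 0.55 and 1.00 in Cy5, -0.81, -0.78 and -0.62 in Cy3, and a fit of 0.029 ± 0.059, or -0.021 ± 0.055 without replicate 5.

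The box H/ACA snoRNP converts uridine to pseudouridine, and Dkc1 (dyskerin) is its catalytic subunit. Its log2 ratios were 0.044, 0.06, 0.046, 0.19 and 0.44 on replicates 1, 2, 3, 4 and 6, all above 0, with no value on replicate 5. The fit gave 0.14 ± 0.060 (n = 5, limma adjusted p = 0.376). The second Dkc1 probe gave -0.043 ± 0.071 with both signs. The partner proteins Gar1, Nhp2 and Nop10, listed on the array as Nola1, Nola2 and Nola3, stood at -0.088, 0.088 and 0.035, and none passed.

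Of the 15 small subunit processome and 40S genes, 1 passed the test, and the median was -0.043 with 5 above 0 and 10 below under loess. Utp14b encodes a processome protein and is known as an autosomal retrocopy of the X-linked Utp14a that is needed for sperm formation. Its log2 ratios were 0.25, 0.30, 0.23, 0.47 and 0.24 on replicates 1, 2, 3, 4 and 6. The value was above 0 on 5 of 5 arrays, and its spot on replicate 5 was flagged. The fit gave 0.29 ± 0.051 (limma adjusted p = 0.0207, 1.22-fold). The call was lost without replicate 1, 2, 3 or 4 (adjusted p = 0.159, 0.073, 0.122 and 0.0795), and with slide as a block (adjusted p = 0.0889). Its parent gene Utp14a was at -0.053 ± 0.085, with values of both signs.

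Utp14b has 1 probe, and that probe (chr1:78663730-78663789, plus strand, mm9) holds AAACAAACAAACAAACAA, the longest 4-base repeat among 61 probe sequences of these genes, the next being 13 bases long in a Utp6 probe. The probes of Nol4 were not among these 61. In the RefSeq gene table the Utp14b record lies inside that of Acsl3, and both records begin at the same base. The promoter table's window for Utp14b is that of a start site further in. Acsl3, which encodes a long-chain acyl-CoA synthetase, was looked at after its value was seen. It had log2 ratios of 0.39, 0.27, 0.49 and 0.71 on replicates 2, 3, 4 and 6, and a fit of 0.40 ± 0.075 (n = 4, limma adjusted p = 0.037). The fitted probes of both genes were thus higher with VIP on every array that measured them. For Acsl3 only replicate 3 had VIP in Cy5, so its dye term rests on that array. The part of shared or stray hybridisation in the Utp14b value was not tested.

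Utp18, a WD-repeat protein of the processome, had log2 ratios of -0.22, -0.11, -0.36, -0.25, -0.067 and -0.23, below 0 on 6 of 6 arrays. The fit gave -0.21 ± 0.048 and missed the threshold (limma adjusted p = 0.0627). Without replicate 5 it stood at -0.24 ± 0.049 and passed (adjusted p = 0.0134). Its dimmer probe gave -0.084 ± 0.057, with values on both sides of 0. Utp11l (Utp11) had values on 3 arrays, -0.10, -0.36 and -0.33 on replicates 4, 5 and 6, and a fit of -0.29 ± 0.076 (n = 3, limma adjusted p = 0.151). Without replicate 5 it could not be fitted, since VIP was in Cy3 on both arrays left.

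The other 12 processome and 40S genes lay between -0.083 (Utp15) and 0.10 (Utp6), and 0 of 12 passed. Utp6 was above 0 on the 4 arrays that measured its brightest probe, and its 2 other probes gave -0.069 and -0.053. Nol11, a processome protein also needed for Pol I transcription, and Nol10 stood at 0.00 and 0.0042. Rrp9, which binds the U3 snoRNA, stood at 0.012.

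**Figure D2:**
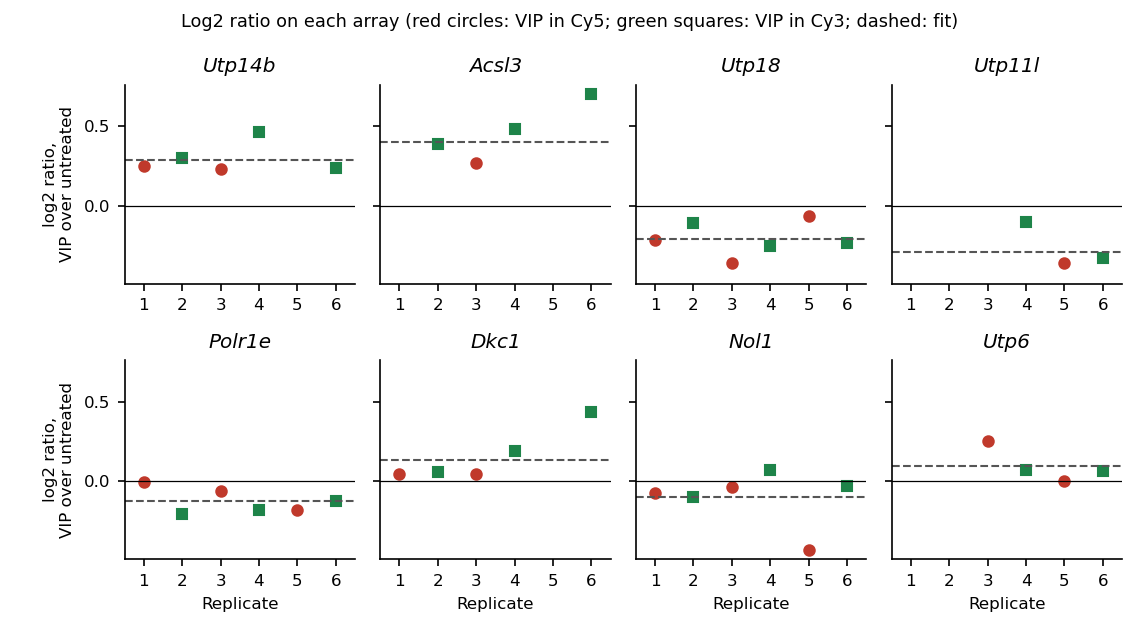
Log2 ratio of VIP over untreated (y axis) on each array (x axis, replicate) for 7 of the genes and for Acsl3; red circles have VIP in Cy5, green squares have VIP in Cy3, the dashed line is the fitted ratio, and a missing point is a flagged spot. Utp14b and Acsl3 lie above 0 and Utp18 below 0 on every array with a value.

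The 10 genes for 60S assembly had a median of -0.012, with 5 above and 5 below 0, and 0 of 10 passed. Nol1 (Nop2), a methyltransferase of 28S ribosomal RNA, had log2 ratios of -0.075, -0.096, -0.035, 0.074, -0.43 and -0.029. It was lowest on replicate 5, and the fit gave -0.099 ± 0.057 (limma adjusted p = 0.529), or -0.036 ± 0.047 without that array. Rrp15 had -0.30, 0.14, -0.30, -0.056, 0.26 and -0.17, of both signs, and a fit of -0.070 ± 0.075 (limma adjusted p = 0.786). Leaving out 1 array moved it between -0.023 (without replicate 1) and -0.16 ± 0.053 (without replicate 5). The PeBoW complex, which matures the 60S precursor, comprises Pes1, Bop1 and Wdr12. By their brightest probes they stood at 0.058, 0.037 and -0.032, with 95% intervals that all held 0. The other Wdr12 probes were lower, at -0.10 ± 0.041 and -0.18 ± 0.048. Pes1 had a log2 ratio of 0.59 on replicate 5 and between -0.15 and 0.064 elsewhere, and its fit without that array is not given. The second Pes1 probe gave 0.061 ± 0.051. Rrp1b was highest at 0.06.

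Nucleolin (Ncl) and nucleophosmin (Npm1) are abundant nucleolar phosphoproteins that act as chaperones for ribosomal RNA and proteins. Ncl had log2 ratios of 0.84, -0.98, 0.97, -0.69, -1.01 and -0.74. It was high where VIP was in Cy5 on replicates 1 and 3 and low on replicate 5, the third array of that orientation. The fit gave -0.27 ± 0.21 (limma adjusted p = 0.663) with all arrays and 0.049 ± 0.054 without replicate 5. Npm1 had 0.49, -0.47, 0.80, -0.023, -0.50 and -0.71, and the fit moved from -0.068 ± 0.14 (limma adjusted p = 0.912) to 0.12 ± 0.082 without replicate 5. The sign of both fits, which rest on the brightest probe, thus depended on that array. The second Npm1 probe gave -0.11 ± 0.098, and the second Ncl probe, which overlaps the brightest, gave -0.15 ± 0.17. The dimmer Ncl probes, which do not overlap it, gave -0.10 ± 0.061 (n = 4 arrays, with no value on replicate 5) and -0.18 ± 0.054 (n = 6). Each of these dimmer probes had values on both sides of 0.

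The spots of these bright genes came near the scanner's limit in the red channel. Red signal was 81.4% to 97.5% of the saturation value for Fbl, 70.6% to 98.3% for Nol5a, 28.5% to 91.2% for Ncl and 30.5% to 93.4% for Npm1. Green signal lay between 9.28% and 18.7%. The lowest red values of Ncl and Npm1 were those of replicate 5, and the red spots of Fbl and Nol5a were flagged as saturated on that array. A dye effect above 0.3 in size was found in 5 of the 34 genes (14.7%), against 2.56% of all genes. These were the 4 bright genes and Rrp1, which was less bright and had a dye effect of the opposite sign (-0.37). The part of the scanner limit in these dye effects was not tested.

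**Figure D3:**
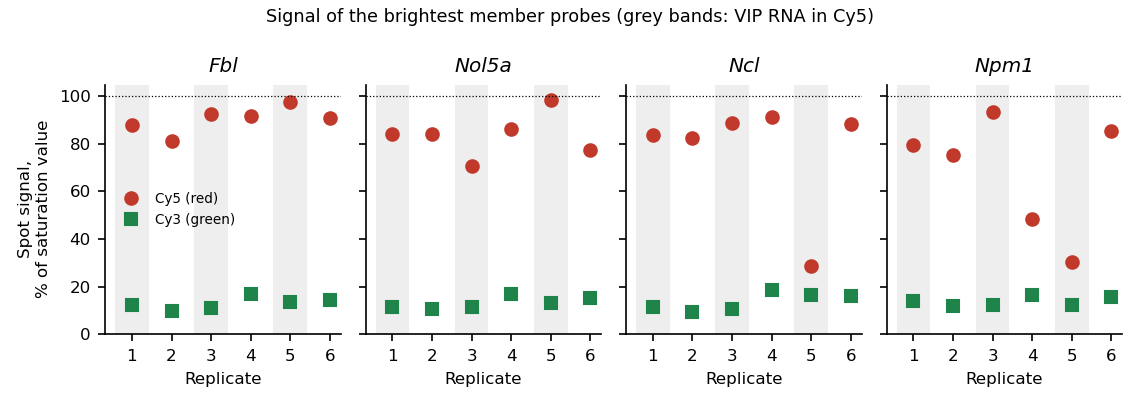
Spot signal as a percentage of the saturation value (y axis, starting at 0; dotted line, 100%) on each array (x axis, replicate) for 4 bright genes; red circles are Cy5, green squares are Cy3, and grey bands mark arrays with VIP in Cy5. Red lies above green on every array, and the red signal of Ncl and Npm1 is lowest on replicate 5.

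Nol3 and Nol4 fall under the naming rule, but Nol3 encodes an inhibitor of apoptosis and is not a ribosome factor. Both were dim, well above background on 2 or 3 arrays in each RNA. Nol3 had log2 ratios of 0.057, 0.090, -0.27, -0.012, -0.048 and 0.015, on both sides of 0, and a fit of -0.028 ± 0.049 (limma adjusted p = 0.889). Nol4 had log2 ratios of 0.025, -0.0079, -0.19, 0.024, -0.0091 and -0.036, also on both sides of 0, and a fit of -0.032 ± 0.043 (limma adjusted p = 0.842).

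Probes of one gene gave a second view of the same arrays. There were 64 probes for the 34 genes, and 21 genes had more than 1 probe tested. In 9 of these 21 the probes had both signs. The range between probes of a gene had a median of 0.086 and was widest, at 0.19, in Rrp1b. The median size of the fitted log2 ratios of the 34 genes was 0.054.

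**Figure D4:**
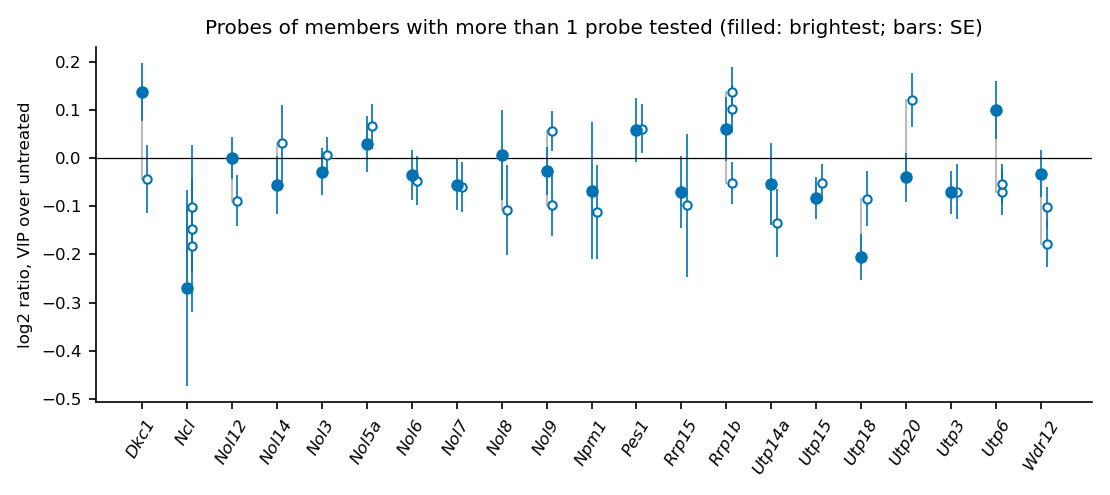
Log2 ratio of VIP over untreated (y axis) for each tested probe of the 21 genes with more than 1 (x axis); filled points are the brightest probe, open points the others, and bars are SE. The probes of 9 genes lie on both sides of 0, and Rrp1b has the widest range.

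Related genes outside the naming rule were set beside these as 8 lists. Of 161 tested, 2 rose and none fell, against the same background of 1.58% higher and 0.509% lower, and 51 lay above 0 and 110 below, with a median of -0.031. Centring on the median turned this too, to 108 above and 53 below. Mxi1, a MAX partner that opposes MYC, rose on 6 of 6 arrays (log2 ratios 0.33, 0.28, 0.39, 0.25, 0.36 and 0.32, fit 0.32 ± 0.038, limma adjusted p = 0.0021). Myc itself stood at -0.033 ± 0.10. The 10 genes of the MYC network had a median of -0.023 under loess, with 3 above 0 and 7 below, and Mxd4 was lowest at -0.15. With median centring 6 of the 10 lay above 0 and 4 below. Rpap3, part of the R2TP complex that assembles snoRNPs and polymerases, rose on 6 of 6 arrays (0.13, 0.27, 0.12, 0.22, 0.22 and 0.24, fit 0.20 ± 0.039, limma adjusted p = 0.0287). The 10 snoRNP assembly factors, Rpap3 among them, had a median of -0.073, with 2 above 0 and 8 below. With median centring 7 of the 10 lay below 0. Shq1 was lowest at -0.17. It was called lower with the mean of tested probes, with array weights and at a threshold of 0.1.

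No other gene of these lists passed. The 20 Pol I factors and shared subunits had a median of -0.0023, with the smallest p for Polr2h (-0.17 ± 0.051), a subunit that all 3 polymerases share. All 11 Pol III subunits lay below 0 under loess, against 6 of 11 with median centring and 10 of 11 without replicate 5, led by Polr3b (-0.20 ± 0.048, limma adjusted p = 0.0683), which passed without replicate 5 or 6. The smallest p stood at Ngdn (-0.15) in the 38 processome genes, Dhx33 (-0.17) in the 49 genes of 60S assembly, Exosc8 (-0.17) in the 15 exosome genes and Polr2m, listed as Grinl1a (-0.097), in the 8 Pol II subunits. With the mean of tested probes in place of the brightest, Polr3b stood at -0.12, Dhx33 at -0.038 and Exosc8 at -0.089. The 17 family members listed under older names had a median of 0.0080, and 0 of 17 passed.

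The ribosomal proteins themselves had a median of 0.050 for the 78 cytosolic ones, of which 54 lay above 0. Of these 1 was called higher (1.28%), against 1.58% of all genes. At an unadjusted limma p under 0.05 there were 12 of the 78 (15.4%), 12 higher and 0 lower. Of all genes 13.0% passed that level, 1643 higher and 1310 lower. The 75 mitochondrial ones had a median of -0.021, and 0 were called. These signs are those under loess and were not counted with median centring.

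**Figure D5:**
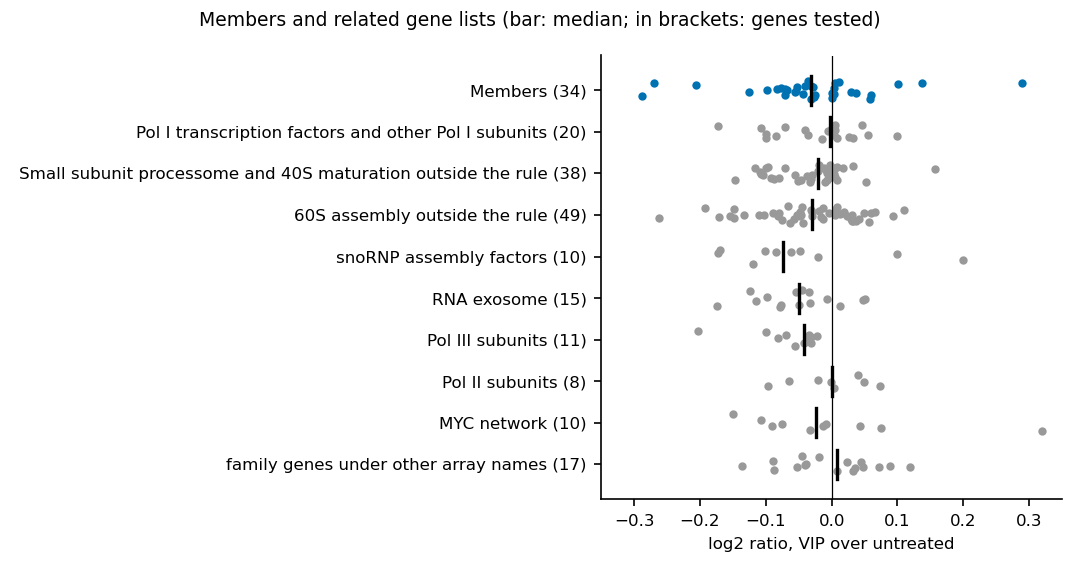
Log2 ratio of VIP over untreated (x axis) for the 34 nucleolar genes (blue) and each related list (grey), with 1 point per gene, the list's median as a black bar and the number tested in brackets; vertical scatter has no meaning. Medians lie close to 0, and Mxi1 at 0.32 and Rpap3 at 0.20 are the genes of the grey lists that passed.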

How the data were processed

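Two-colour Agilent arrays measured total RNA on 6 arrays. Spot intensity and local background of both channels came from Agilent Feature Extraction 9.5.1.1, per the file headers. A log10 ratio, red over green, is deposited beside them. The authors' table of the series holds the same log10 ratios turned to VIP over untreated, with column medians of 0 except on replicate 3 (-0.00022), and served as an alternative. Quality columns deposited with the spots served as 0 or 1 flags.

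Mean signal was corrected with normexp (offset 50), normalized by loess within arrays (control spots at weight 0) and fitted with a VIP and a dye term in limma 3.58.1 under R 4.3.3 (4 residual and 6.19 prior degrees of freedom). Flagged spots were left out and spots of a probe averaged. A gene was tested where its probe was well above background on at least 3 arrays in either RNA, and its brightest such probe stood for it. Benjamini-Hochberg adjustment ran over the 22803 genes. Probe positions are those of the files (mm9). Each array is one pair of RNAs per the labels, and 3 slides held 2 arrays each, the orientation coinciding with the position on the slide. The p-values cover only the variation among the 6 arrays.

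Members and lists were chosen with earlier results of these data known. Values on each array were given for genes past the threshold, Pol I subunits under the rule and the 2 smallest p of each role, and in the related lists for called genes, with the smallest p of each list named. Fbl, which these criteria do not select, was also given array by array. Utp11l, Utp6, Acsl3, Utp14a, Myc and the genes under older names were described after their values were seen. The fit was tested on simulated data. Alternatives varied background, normalization, filters, flags, probes, names, dye term, weights, prior, slide, pairing, threshold and replicates.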

Additional observations from a re-analysis of the deposited data

How the results depend on the processing

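The Utp14b ratio stayed above 0 under the 25 alternatives that could test it (0.26 to 0.36, adjusted p = 0.00497 to 1) and kept its call under 14. No member was called higher (0) with offset 0, median centring, Agilent's log ratios, the authors' table, probes well above background on all arrays (Utp14b was not tested there), slide as a block, or channels unpaired. One lower call (1, Utp18) appeared with array weights, at a threshold of 0.1 and, in a setting chosen after seeing the data, with flagged spots kept and replicate 5 left out. The cause of these changes was not tested. The median over members was 0.042 with median centring and otherwise stayed between -0.054 and -0.013.

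Related genes called higher numbered 1 with offset 0, no dye intercept or slide as a block, and 0 with median centring, Agilent's ratios, the authors' table or channels unpaired. Lower calls there numbered 1 with the mean of probes, 2 with array weights, 3 at 0.1 and 1 in the added setting. All genes called higher and lower numbered 76 and 9 with offset 0, 113 and 8 with median centring, 19 and 0 with Agilent's ratios and with the authors' table, and 163 and 38 without a dye intercept. Lower calls were 74 with flagged spots kept, 225 with array weights, 62 with slide as a block and 223 at 0.1, and the added setting gave 576 and 228.

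The log ratio within an array is the pairing of both RNAs. Without that replicate block, channels as unpaired samples gave 0 and 0 calls over all genes. After this was seen, a form with mean intensity quantile normalized between arrays was added, and it gave 1 and 0, again with 0 members and 0 related genes called. Utp14b stood at 0.2893 in both forms (adjusted p = 1 and 1).

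Signs turned for genes that were not called: Rrp15 (0.046), Nol5 (0.0019) and Npm1 (0.024) with median centring, Nol5a with scaling between arrays (-0.011) and without saturated spots (-0.021, the same value as in the added setting), Dkc1 (-0.043) where its dimmer probe stood for it, Npm1 with array weights (0.043), Nol4 without the filter (0.098), and Nol3 with Agilent's ratios and the authors' table (0.073). In the added setting Ncl was 0.049 and Npm1 0.12. Leaving out 1 array at a time gave 0 to 1 members called higher and 0 to 1 lower, 1 to 2 and 0 to 1 related genes, 160 to 570 and 31 to 253 of all genes, and medians of -0.047 to -0.013. Ranges were -0.021 to 0.091 for Nol5a, -0.45 to 0.049 for Ncl and -0.20 to 0.12 for Npm1. Mxi1 kept its call without any 1 array, and Rpap3 lost it without replicate 1, 2, 3, 4 or 6. Acsl3 lost it without replicate 1, 2, 4 or 6 and could not be fitted without replicate 3.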
